A study of Mus musculus with 9 samples.

Results

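Cadherins are the calcium-dependent adhesion proteins that hold neighbouring cells together, and 10 of their genes (*Cdh1*, *Cdh2*, *Cdh3*, *Cdh4*, *Cdh5*, *Cdh6*, *Cdh10*, *Cdh11*, *Cdh13* and *Cdh15*) were followed across mouse embryonic fibroblasts (MEFs) of 3 genotypes. The members were taken by gene symbol, and all 10 were found among the 24341 genes listed for each library. RNA-Seq of poly(A)-selected mRNA was available for 9 libraries, 3 labelled WT, 3 labelled *Atm-/-* and 3 labelled *Sirt6-/-*. All MEFs carried a C57BL/6 strain label and were grown in DMEM with fetal bovine serum, and no drug treatment was labelled for any of them. ATM is the kinase that signals DNA double-strand breaks, and SIRT6 is a chromatin-bound histone deacetylase.

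Classical cadherins bind cadherins on the next cell through their outer domains and bind β-catenin or plakoglobin through a conserved tail, which α-catenin links to actin. Type I members are *Cdh1* (E-cadherin of epithelia), *Cdh2* (N-cadherin of nerve, muscle and mesenchyme), *Cdh3* (P-cadherin), *Cdh4* (R-cadherin) and *Cdh15* (M-cadherin of muscle), while *Cdh5* (VE-cadherin of endothelium), *Cdh6*, *Cdh10* and *Cdh11* (OB-cadherin of mesenchyme and bone) are usually placed with the type II proteins. *Cdh13* (T-cadherin) is held in the membrane by a lipid anchor and has no catenin-binding tail, so it is not classical in structure. A change in which cadherin a cell makes, such as from E-cadherin to N-cadherin, is called a cadherin switch and is best known from epithelial-mesenchymal transition.

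The labels of genotype were checked first. *Sirt6* had 487, 402 and 472 reads in WT and 4, 5 and 7 in *Sirt6-/-*. *Atm* went the other way from its label, with 1536 to 1627 reads in WT and 3443 to 3768 in the libraries labelled *Atm-/-* (log2 fold change 1.04 ± 0.06 SE, adjusted p = 5.9e-10, by the quasi-likelihood test of edgeR, adjusted over all genes tested after Benjamini and Hochberg, as for every adjusted p given here, with SE the standard error). A count per gene does not show which exons were read, so the deletion itself was not visible. *Trp53*, the gene of p53, had 806, 946 and 928 reads in the libraries labelled *Atm-/-*, against 6563 to 7108 in WT and 9081 to 9218 in *Sirt6-/-*. The labels name P53-/- and Atm-/-P53-/- mice among the sources of MEFs without tying them to libraries. The methods of the study list immortalised *Atm-/-; p53-/-* MEFs and *Sirt6-/-* MEFs, each given by a different laboratory. They do not say which MEFs were sequenced. Genotype, p53 status, laboratory of origin and immortalisation cannot be told apart in these groups, and the labels do not say whether the 3 libraries of a group were separate embryos or cultures, so p-values measure only the spread between these libraries.

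The libraries held 32187040 to 33837949 counted reads, at which 3 reads, taken as the floor, equal 0.0887 to 0.0932 CPM (counts scaled to the library total). Fibroblast markers were present in every group, but their summed level differed, at 26551 to 29587 CPM in WT, 9603 to 9833 CPM in the libraries labelled *Atm-/-* and 20335 to 20622 CPM in *Sirt6-/-*. Over all genes tested against WT, 34.7% were higher and 33.6% lower in the libraries labelled *Atm-/-*, and 39.2% and 37.4% in *Sirt6-/-*. Of the 12 fibroblast markers, 2 were higher and 9 lower than WT in the libraries labelled *Atm-/-*, and 4 higher and 6 lower in *Sirt6-/-*. *Thy1* went against most of the list in the libraries labelled *Atm-/-*, with 2874 to 3200 reads there and 590 to 941 in WT. In *Sirt6-/-* it was among the markers lower than WT, at 1 to 33 reads. *Fap* had 0 reads in all WT libraries and *Lum* 0 in all libraries labelled *Atm-/-*. The 12 epithelial markers summed to 24.9 to 28.5 CPM in WT, 92.3 to 101 CPM in the libraries labelled *Atm-/-* and 22.2 to 25.2 CPM in *Sirt6-/-*, and of the 9 tested against WT in the libraries labelled *Atm-/-*, the keratin genes *Krt18* and *Krt19* were higher, *Ocln* lower (31 to 50 reads in WT, 3 to 15 in the libraries labelled *Atm-/-*) and 6, *Epcam* and *Krt8* among them, not past the threshold. The 10 endothelial markers summed to 3.22 to 4.67 CPM in WT, 11.4 to 13.9 CPM in the libraries labelled *Atm-/-*, where *Kdr* was higher than in WT, and 1.34 to 2.42 CPM in *Sirt6-/-*, with *Tie1* and *Sox17* at 0 in all libraries. *Vwf* and *Esam*, with at most 29 reads, were also called higher in the libraries labelled *Atm-/-*, calls that were lost in several alternatives (for *Esam* with the replicate number as a block, adjusted p = 0.0518). The endothelial markers did not move together in *Sirt6-/-*, where of the 3 tested against WT *Vwf* and *Erg* were higher and *Kdr* lower. *Erg* had 62 reads over the *Sirt6-/-* libraries and 0 in WT. The 8 skeletal muscle markers summed to 11.7 to 14.4 CPM in WT, mostly *Acta1*, and, in the same order of groups, 1.35 to 2.14 and 1.41 to 1.86 CPM, with *Myf5*, *Myog*, *Pax7* and *Ckm* at 0 in all libraries. The 6 macrophage markers summed to 14.5 to 15.3 CPM in WT, 7.50 to 8.21 CPM in the libraries labelled *Atm-/-* and 7.46 to 9.07 CPM in *Sirt6-/-*. Of the 4 tested against WT, *Csf1r* alone was lower in the libraries labelled *Atm-/-*, and *Csf1r* and *Cd68* were lower in *Sirt6-/-*. The rest of those tested did not pass the threshold.

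The 9 neural and neural crest markers had close sums, of 302 to 321, 344 to 360 and 349 to 380 CPM, in which single genes moved far and in opposite directions. *Nes*, the gene of nestin, was 46.3-fold and 53.8-fold higher than WT in the libraries labelled *Atm-/-* and in *Sirt6-/-*, and *Map2* 42.3-fold and 27.0-fold. *Ncam1*, another adhesion gene, was 6.41-fold and 3.97-fold lower. *Sox2* had 546 to 783 reads in the libraries labelled *Atm-/-* and 0 to 16 elsewhere, and *Pax3* 134 to 142 reads in WT, 124 to 149 in the libraries labelled *Atm-/-* and 0 in *Sirt6-/-*. In bulk RNA a lower level in every cell and fewer cells that express a gene cannot be told apart, and the part of these marker differences in the cadherin values was not tested.

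Levels of different cadherins were compared per transcript length, as the RPKM (reads per kilobase of transcript, scaled to the library total) that the authors deposited. WT MEFs held *Cdh11* at 96.9 ± 4.46, *Cdh3* at 84.0 ± 9.42 and *Cdh2* at 67.1 ± 3.27 RPKM (mean ± SD, n = 3). The values of *Cdh11* and *Cdh3* overlapped between libraries, whereas *Cdh2* lay below both in every library. *Cdh1* at 0.492 ± 0.0545 RPKM and *Cdh13* at 0.287 ± 0.0342 RPKM were far below these 3, and the other 5 members were under 0.1 RPKM in WT. In the libraries labelled *Atm-/-* the order became *Cdh2* (44.9 ± 1.60 RPKM), *Cdh11* (23.9 ± 1.44), *Cdh13* (14.7 ± 0.215), *Cdh3* (11.8 ± 0.698) and *Cdh1* (0.983 ± 0.0532), and no neighbours in that order overlapped. In *Sirt6-/-* it was *Cdh11* (150 ± 4.86 RPKM), *Cdh2* (28.7 ± 0.857), *Cdh13* (23.1 ± 1.31), *Cdh1* (0.443 ± 0.136) and *Cdh3* (0.224 ± 0.0530), again without overlap. *Cdh3* therefore went from the second place among the members in WT to the fourth in the libraries labelled *Atm-/-* and the fifth in *Sirt6-/-*. Its place below *Cdh13* in the libraries labelled *Atm-/-* rests on the division by length. By reads alone *Cdh3* was above *Cdh13* there, at 1496 to 1631 against 1095 to 1126.

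**Figure D1:**
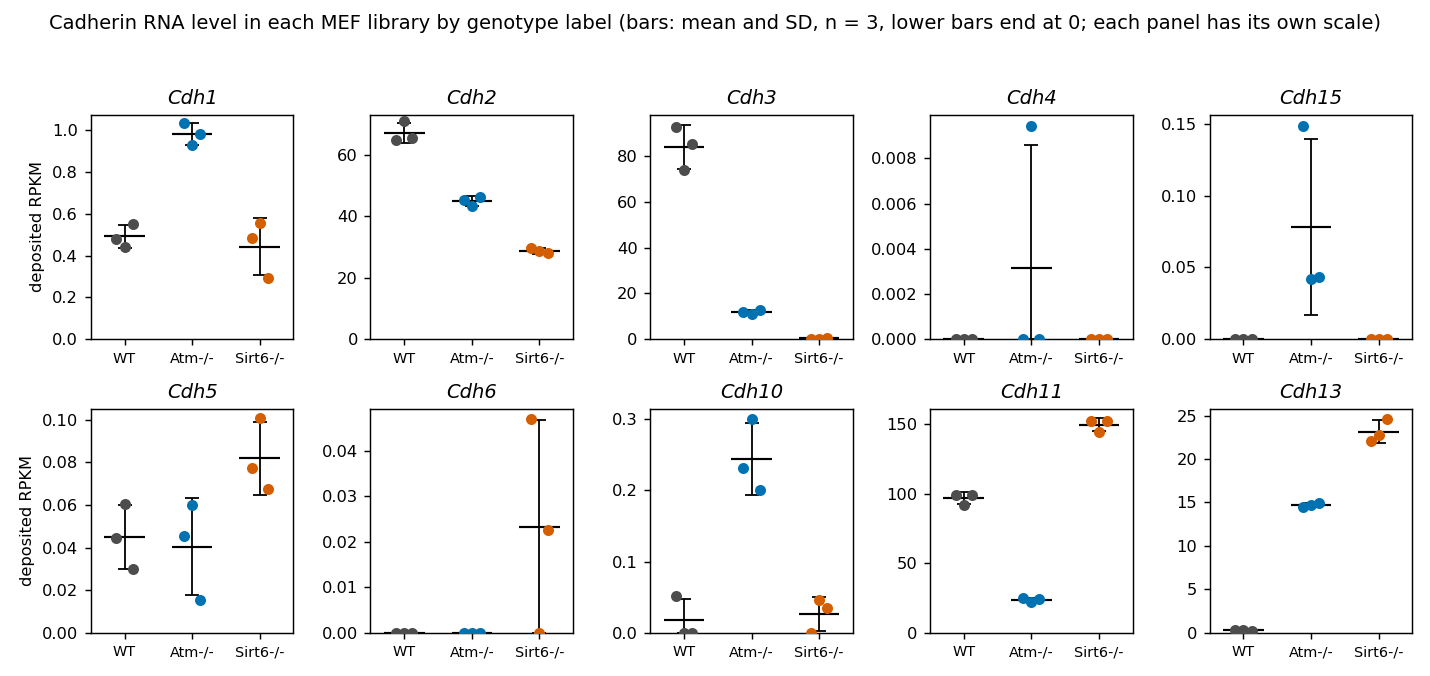
Deposited RPKM of the 10 cadherin genes in each of the 9 MEF libraries, grouped by genotype label, with type I members first and *Cdh13* last. Points are libraries, bars are the mean and SD (n = 3) and each panel has its own vertical scale. *Cdh3* lies at 74.0 to 92.6 RPKM in WT and at 0.176 to 0.281 in *Sirt6-/-*, *Cdh13* lies under 0.4 RPKM in WT and above 14 in all other libraries, and the panels of *Cdh4*, *Cdh5*, *Cdh6*, *Cdh10* and *Cdh15* reach at most 0.299 RPKM.

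The place of these genes among all genes moved with them. Ranked by mean RPKM, with 16045, 16659 and 16317 genes above 0 in WT, the libraries labelled *Atm-/-* and *Sirt6-/-*, *Cdh3* was the 918th, the 5961st and the 12531st gene. *Cdh11* was the 774th, the 3628th and the 451st. *Cdh13* took the opposite course to *Cdh3*, at places 11810, 5232 and 3612. *Cdh2* moved less, at 1197, 1982 and 2953, and *Cdh1* stayed low throughout at 11293, 11083 and 11885.

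Coordinates of members are those of GENCODE M21 on GRCm38. As shares of the summed RPKM of the 10 cadherins, WT MEFs were split between 3 genes, with 38.9 ± 0.575% in *Cdh11*, 33.7 ± 2.40% in *Cdh3* and 27.0 ± 2.48% in *Cdh2* (mean ± SD, n = 3). In the libraries labelled *Atm-/-*, *Cdh2* held 46.4 ± 0.268%, *Cdh11* 24.7 ± 0.711%, *Cdh13* 15.2 ± 0.593% and *Cdh3* 12.2 ± 0.294%. In *Sirt6-/-*, *Cdh11* alone held 74.0 ± 0.519%, with 14.2 ± 0.534% in *Cdh2*, 11.4 ± 0.619% in *Cdh13* and 0.110% in *Cdh3*. *Cdh2*, *Cdh3*, *Cdh11* and *Cdh13* together made up 98.5 to 99.8% of the cadherin sum in every library. The sum itself was 237 to 258 RPKM in WT, 92.7 to 99.6 RPKM in the libraries labelled *Atm-/-* and 196 to 206 RPKM in *Sirt6-/-*, and the 3 groups did not overlap. N-cadherin RNA exceeded E-cadherin RNA in all 9 libraries, with a *Cdh2* to *Cdh1* ratio of RPKM of 119 to 160 in WT, 43.5 to 47.2 in the libraries labelled *Atm-/-* and 51.5 to 96.0 in *Sirt6-/-*. The shares are a description and were not tested.

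**Figure D2:**
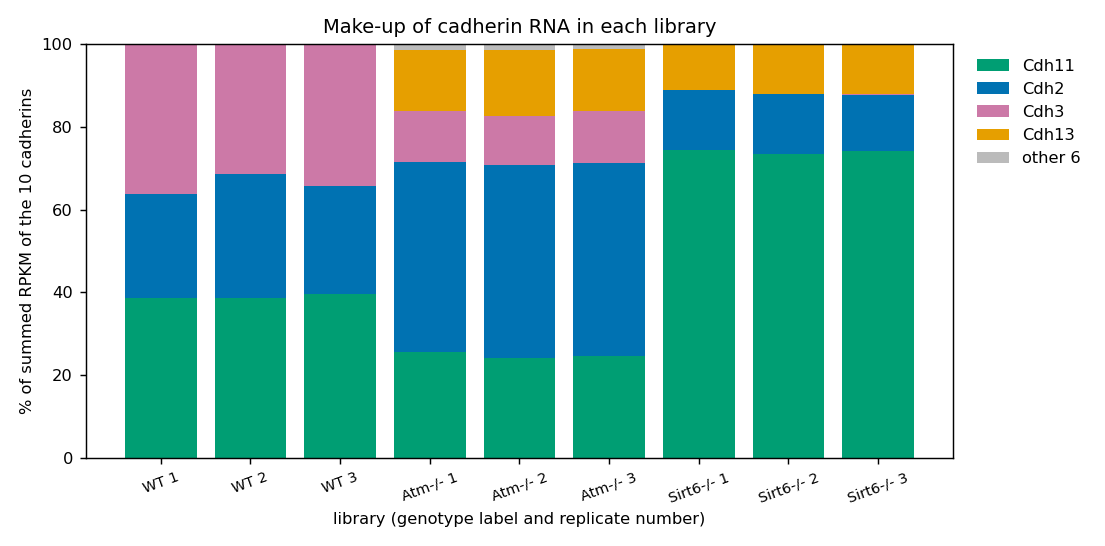
Share of the summed RPKM of the 10 cadherins held by *Cdh11*, *Cdh2*, *Cdh3*, *Cdh13* and the other 6 members (vertical axis, %) in each library (horizontal axis, genotype label and replicate number). The 3 libraries of a group resemble each other, with 3 large bands in WT, 4 in the libraries labelled *Atm-/-* and a dominant *Cdh11* band of 74.0 ± 0.519% in *Sirt6-/-*.

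Among the type I genes, *Cdh3* had the lowest RNA in *Sirt6-/-* relative to WT. *Cdh3* (chr8:106510891-106557297) had 12665, 9924 and 11505 reads in WT, 1580, 1496 and 1631 in the libraries labelled *Atm-/-* and 28, 23 and 38 in *Sirt6-/-*. The 3 groups were far apart, and even the lowest *Sirt6-/-* library was above the floor. Against WT, *Cdh3* was 7.96-fold lower in the libraries labelled *Atm-/-* (log2 fold change -2.99 ± 0.08 SE, adjusted p = 1.7e-13) and 396-fold lower in *Sirt6-/-* (log2 fold change -8.63 ± 0.13 SE, adjusted p = 2.0e-16). Between both of these groups, which share the WT libraries as their control, *Cdh3* was 50.3-fold lower in *Sirt6-/-* (log2 fold change -5.65 ± 0.13 SE, adjusted p = 2.1e-19).

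*Cdh2* (chr18:16588877-16809246), which encodes the cadherin usually raised in a mesenchymal switch, was lower than WT in both other groups. It had 10214, 10942 and 10149 reads in WT, 6918, 6692 and 6959 in the libraries labelled *Atm-/-* and 4452, 4280 and 4344 in *Sirt6-/-*, with no overlap. The log2 fold change from WT was -0.74 in the libraries labelled *Atm-/-* (standard error 0.05, adjusted p = 5.1e-09) and -1.31 in *Sirt6-/-* (standard error 0.05, adjusted p = 4.7e-12), and *Sirt6-/-* was below the libraries labelled *Atm-/-* by -0.59 (standard error 0.04, adjusted p = 9.4e-11). Of these, the drop between *Sirt6-/-* and WT alone reached 2-fold, at 2.48-fold.

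*Cdh1* (chr8:106603351-106670246), the E-cadherin gene, had few reads everywhere, 72, 65 and 81 in WT, 151, 137 and 140 in the libraries labelled *Atm-/-* and 69, 79 and 43 in *Sirt6-/-*. The libraries labelled *Atm-/-* were above all others (log2 fold change from WT 0.84 ± 0.19 SE, adjusted p = 0.00152), and *Sirt6-/-* was below them by -1.09 (standard error 0.23, adjusted p = 0.000229). *Sirt6-/-* and WT overlapped, with a log2 fold change of -0.24 (standard error 0.28, adjusted p = 0.443). The keratin genes *Krt18* and *Krt19* were also highest in the libraries labelled *Atm-/-*, at 891 to 1044 and 1461 to 1706 reads against 198 to 268 and 59 to 77 in WT, while *Ocln* was lower there than in WT and the 6 other epithelial markers tested did not pass the threshold. The part of these markers in the *Cdh1* difference was not tested. *Cdh4* (chr2:179442431-179899373) had 0 reads in 8 libraries and 2 in the second library labelled *Atm-/-*. *Cdh15* (chr8:122847966-122867397) had 14, 4 and 4 reads in the libraries labelled *Atm-/-* and 0 in all others, so with the floor of 3 reads over the 3 libraries of a group it was at least 7.47-fold higher than in WT and at least 7.28-fold higher than in *Sirt6-/-*. Neither *Cdh4* nor *Cdh15* passed the filter on low counts, and without it *Cdh15* was called in both of these differences (adjusted p = 0.00873 and 0.00357), whereas *Cdh4* was not (adjusted p = 0.392 against WT).

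The type II gene *Cdh11* (chr8:102632095-102785642), which encodes the mesenchymal OB-cadherin, was the member that moved in opposite directions. It had 14187, 12849 and 13982 reads in WT, 3468, 3134 and 3351 in the libraries labelled *Atm-/-* and 20818, 19637 and 21562 in *Sirt6-/-*, and the groups did not overlap. *Cdh11* was 4.53-fold lower in the libraries labelled *Atm-/-* than in WT (log2 fold change -2.18 ± 0.06 SE, adjusted p = 1.4e-13) and 1.46-fold higher in *Sirt6-/-* than in WT (log2 fold change 0.54 ± 0.05 SE, adjusted p = 7.8e-08). The difference between *Sirt6-/-* and the libraries labelled *Atm-/-* was 6.53-fold (log2 fold change 2.71 ± 0.05 SE, adjusted p = 2.0e-21). The summed fibroblast markers were also lowest in the libraries labelled *Atm-/-*, at 9603 to 9833 CPM, but the list did not follow *Cdh11* as a whole. *Col1a1* and *Col3a1* were lower than WT in *Sirt6-/-* too (log2 fold change -1.87 and -0.95), where *Cdh11* was higher, and *Thy1* was higher in the libraries labelled *Atm-/-* and lower in *Sirt6-/-* than in WT (log2 fold change 1.83 and -5.69). *Col1a2*, *Pdgfrb*, *Dcn* and *S100a4* had the directions of *Cdh11* against WT, lower in the libraries labelled *Atm-/-* and higher in *Sirt6-/-*. Of the 11 markers tested between *Sirt6-/-* and the libraries labelled *Atm-/-*, 8 were higher and 2 lower, beside 37.8% and 38.0% of all genes. The part of these markers in the *Cdh11* values was not tested.

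The other type II members were near the limit of detection. *Cdh10* (chr15:18818947-19014236) had 6, 0 and 0 reads in WT, 26, 34 and 22 in the libraries labelled *Atm-/-* and 0, 5 and 4 in *Sirt6-/-*. It was called higher in the libraries labelled *Atm-/-* than in WT (log2 fold change 3.56 ± 0.75 SE, adjusted p = 0.000693) and lower in *Sirt6-/-* than in the libraries labelled *Atm-/-* (log2 fold change -3.07 ± 0.62 SE, adjusted p = 0.000153). The size of the first difference rests on the 6 reads of the first WT library, without which WT is at 0 and the fitted value, which then depends on the prior count, was 7.72. *Cdh5* (chr8:104101625-104144511), the VE-cadherin gene that marks endothelium, had 2 to 13 reads in each of the 9 libraries and *Cdh6* (chr15:13028701-13173675) 4, 0 and 2 in *Sirt6-/-* and 0 elsewhere. Neither passed the filter on low counts, and without it neither was called in any comparison they entered, with adjusted p of 0.285 to 0.796 for *Cdh5* and of 0.113 and 0.132 for *Cdh6*.

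*Cdh13* (chr8:118283733-119324921), the tail-less T-cadherin gene, had the largest rise among the members with reads in all WT libraries. It had 23, 24 and 19 reads in WT, 1095, 1126 and 1104 in the libraries labelled *Atm-/-* and 1632, 1687 and 1885 in *Sirt6-/-*. WT was thus well above the floor but far below every other library, and *Sirt6-/-* was above the libraries labelled *Atm-/-*. *Cdh13* was 45.6-fold higher than WT in the libraries labelled *Atm-/-* (log2 fold change 5.51 ± 0.13 SE, adjusted p = 9.7e-14) and 75.5-fold higher in *Sirt6-/-* (log2 fold change 6.24 ± 0.12 SE, adjusted p = 3.6e-15). *Sirt6-/-* exceeded the libraries labelled *Atm-/-* 1.64-fold (log2 fold change 0.71 ± 0.06 SE, adjusted p = 2.4e-09).

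**Figure D3:**
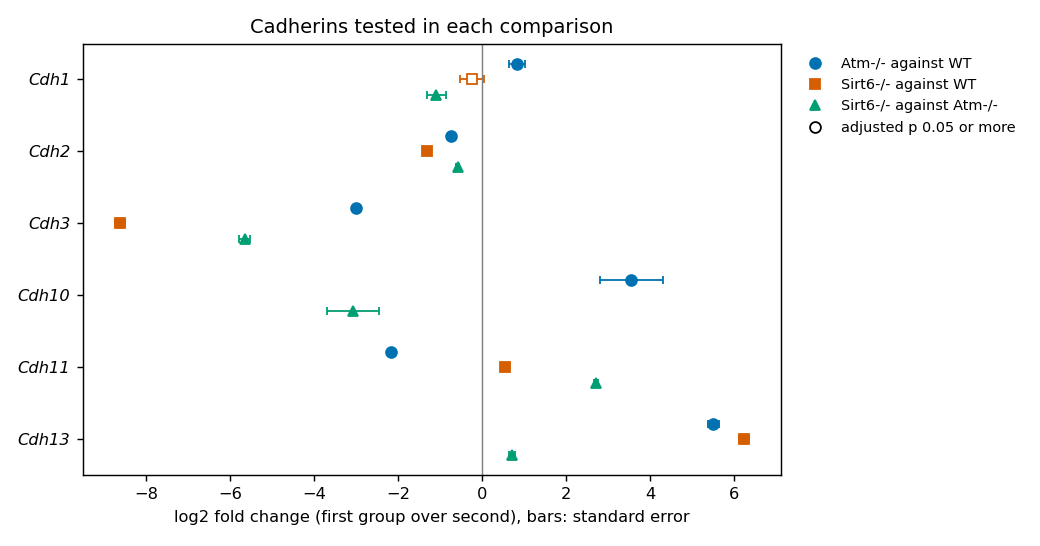
Log2 fold change of each cadherin with enough reads to be tested (horizontal axis, first group over second, bars are standard errors) in the 3 comparisons, with open symbols at an adjusted p of 0.05 or more. *Cdh3* is negative and *Cdh13* positive in all 3, *Cdh11* lies at -2.18 for the libraries labelled *Atm-/-* and at 0.54 for *Sirt6-/-* against WT, and the open symbol is *Cdh1* in *Sirt6-/-* against WT.

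Counted over the members, 6 of the 10 could be tested between the libraries labelled *Atm-/-* and WT, of which 3 (*Cdh1*, *Cdh10*, *Cdh13*) were higher and 3 (*Cdh2*, *Cdh3*, *Cdh11*) lower, with a median log2 fold change of 0.05 against 0.02 over all genes tested. Of all 13283 genes tested, 68.4% passed the same threshold, 34.7% higher and 33.6% lower. With library totals in place of TMM scaling, which raised the median log2 fold change of all genes by 0.16, 71.4% passed, 46.3% higher and 25.0% lower. Between *Sirt6-/-* and WT 5 members were tested, of which 2 (*Cdh11*, *Cdh13*) were higher, 2 (*Cdh2*, *Cdh3*) lower and 1 (*Cdh1*) not past the threshold, while 76.6% of 13206 genes passed it, 39.2% higher and 37.4% lower. Between *Sirt6-/-* and the libraries labelled *Atm-/-* 6 were tested, with 2 (*Cdh11*, *Cdh13*) higher and 4 (*Cdh1*, *Cdh2*, *Cdh3*, *Cdh10*) lower, while 75.8% of 13460 genes passed, 37.8% higher and 38.0% lower. The median log2 fold change of the members was -0.24 in *Sirt6-/-* against WT, where that of all genes tested was 0.02. In *Sirt6-/-* against the libraries labelled *Atm-/-* it was -0.84, where that of all genes was -0.00. With so few members, chosen with earlier results known, the share called is no result about the cadherins. It is the size and direction of the single genes that sets them apart from each other. When a change of at least 2-fold was also required, 1 member (*Cdh13*) was higher in *Sirt6-/-* than in WT.

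Most other cadherin genes had too few reads to be tested. Of 13 further type I, type II and related cadherins, 5 could be tested, and against WT 3 were higher and 2 lower in the libraries labelled *Atm-/-*, while 2 were higher, 2 lower and 1 was not past the threshold in *Sirt6-/-*, beside 68.4% and 76.6% of all genes called. *Cdh18* had 1, 0 and 0 reads in WT, 30, 26 and 25 in the libraries labelled *Atm-/-* and 171, 166 and 165 in *Sirt6-/-*. Like *Cdh13* it was highest in *Sirt6-/-*, and its difference between *Sirt6-/-* and the libraries labelled *Atm-/-* had a log2 fold change of 2.69 (standard error 0.23, adjusted p = 8.9e-10), whereas no fold is given against WT with its single read. *Cdh17*, the LI-cadherin gene of intestine and liver, had 7, 4 and 28 reads in WT, 140, 177 and 130 in the libraries labelled *Atm-/-* and 258, 279 and 229 in *Sirt6-/-*. Its log2 fold change from WT was 3.37 and 4.23, and without the third WT library 4.59 and 5.44. *Cdh26* was lower than WT in both groups (log2 fold change -1.81 and -1.77), from 23 to 56 reads in WT to 5 to 19 elsewhere. *Cdh24* was higher in the libraries labelled *Atm-/-* than in WT (log2 fold change 0.87 ± 0.11 SE, adjusted p = 7.8e-06). The fifth gene, *Cdh23*, was also lower than WT in both groups (log2 fold change -0.86 and -0.80, adjusted p = 0.028 and 0.029). The number of these genes lower than WT was 1 in 7 of 16 alternatives for the libraries labelled *Atm-/-* and in 8 of 16 for *Sirt6-/-*. It was 1 in each comparison without the first or the third WT library, and in *Sirt6-/-* also with the replicate number as a block. *Cdh26* kept its call in all 15 alternatives that fitted it in each comparison, so the call lost in these fits was that of *Cdh23*. *Cdh16*, which was not tested, had 23 reads over the *Sirt6-/-* libraries and 0 in all others. With the floor of 3 reads over a group it was at least 7.86-fold higher than in WT and at least 7.72-fold higher than in the libraries labelled *Atm-/-*. Of the 9 desmosomal cadherins, *Dsg2* alone could be tested, with 13 to 30 reads in the libraries labelled *Atm-/-* and 6 to 17 in WT, and it did not pass the threshold (log2 fold change 0.86, adjusted p = 0.145).

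The catenins bind the cadherin tail and link it to actin. Of 12 catenins and linkers, 10 could be tested. Against WT, 4 were higher and 4 lower in the libraries labelled *Atm-/-* (median log2 fold change of the 10 -0.00) and 5 higher and 4 lower in *Sirt6-/-* (median 0.03). With 68.4% and 76.6% of all genes called, these shares are near the background. With each library left out in turn, 2 or 3 were higher in the libraries labelled *Atm-/-*, and 2 without the third WT library. *Ctnnb1*, the gene of β-catenin, had 28301 to 30420 reads in WT, 23022 to 23580 in the libraries labelled *Atm-/-* and 24031 to 25359 in *Sirt6-/-*, with log2 fold changes from WT of -0.45 and -0.29. *Jup*, the gene of plakoglobin, which takes the place of β-catenin on some cadherin tails, fell in both groups, from 5747 to 6110 reads in WT to 2824 to 2973 in the libraries labelled *Atm-/-* (log2 fold change -1.16 ± 0.05 SE, adjusted p = 3.3e-11) and 1854 to 1970 in *Sirt6-/-* (log2 fold change -1.66 ± 0.05 SE, adjusted p = 3.9e-13). *Jup* thus had the same order over the groups as *Cdh2* and *Cdh3*. *Ctnna1*, the gene of αE-catenin, was lower in *Sirt6-/-* (log2 fold change from WT -0.89, adjusted p = 5.0e-11) and did not pass the threshold in the libraries labelled *Atm-/-* (log2 fold change -0.09, adjusted p = 0.0622).

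Among the catenins of the p120 group, *Ctnnd2*, the δ-catenin gene of neurons, had 7 to 10 reads in WT, 13 to 25 in the libraries labelled *Atm-/-* and 99 to 160 in *Sirt6-/-* (log2 fold change of *Sirt6-/-* from WT 3.87 ± 0.33 SE, adjusted p = 7.0e-08). Its smaller difference between the libraries labelled *Atm-/-* and WT (log2 fold change 1.18, adjusted p = 0.0370) was lost with the replicate number as a block (adjusted p = 0.0795) and in 7 other alternatives. *Pkp4* was also highest in *Sirt6-/-* (log2 fold change from WT 1.17), and *Arvcf* was lowest in the libraries labelled *Atm-/-* (log2 fold change from WT -1.16). *Mllt4*, the gene of afadin that ties nectins to actin, fell in both groups (log2 fold change -0.95 and -1.24).

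Nectins start the junctions that cadherins fill. In each comparison 1 of 5 was higher, 3 were lower and 1 was not past the threshold, a share called near the 68.4 to 76.6% of all genes. *Pvrl3*, the older symbol of the nectin-3 gene, had 25 to 44 reads in WT, 543 to 612 in the libraries labelled *Atm-/-* and 1000 to 1087 in *Sirt6-/-* (log2 fold change from WT 3.99 and 4.91, standard errors 0.18 and 0.15, adjusted p = 8.2e-11 and 5.0e-13). Its order over the groups was that of *Cdh13*. *Pvrl2* (log2 fold change from WT -1.42 and -1.87), *Pvr* (-0.54 and -2.12) and *Pvrl1* (-0.58 and -1.32) were lower in both.

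Factors of epithelial-mesenchymal transition that repress *Cdh1*, directly or through others, were compared next. Of the 10 genes, 8 were higher and 2 lower in the libraries labelled *Atm-/-* (median log2 fold change 1.05), and of 9 tested in *Sirt6-/-*, 8 were higher and 1 lower (median 1.21), where the medians over all genes tested were 0.02 in both comparisons. Over all genes tested, 34.7% were higher and 33.6% lower in the libraries labelled *Atm-/-* (46.3% and 25.0% with library totals), and 39.2% and 37.4% in *Sirt6-/-*. *Cdh1* itself was higher than WT in the libraries labelled *Atm-/-* and did not pass the threshold in *Sirt6-/-* against WT. The part of these factors in the *Cdh1* values was not tested. *Foxc2* had 6 to 10 reads in WT, 256 to 331 in the libraries labelled *Atm-/-* and 229 to 306 in *Sirt6-/-* (log2 fold change from WT 5.09 and 4.96, standard errors 0.25 and 0.26, adjusted p = 2.2e-10 and 2.7e-10). *Snai2*, the gene of Slug, rose in both groups (log2 fold change 1.65 and 2.69), as did *Twist2* (1.67 and 2.97), *Twist1* (0.88 and 0.77) and *Zeb1* (0.74 and 0.95).

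The exceptions were *Snai1* and *Zeb2*. *Snai1*, the gene of Snail, had 1085, 1480 and 1163 reads in WT, 941, 911 and 1057 in the libraries labelled *Atm-/-* and 4208, 3782 and 4648 in *Sirt6-/-*. It was lower than WT in the former (log2 fold change -0.49 ± 0.11 SE, adjusted p = 0.0011) and higher in the latter (log2 fold change 1.71 ± 0.10 SE, adjusted p = 8.2e-10), the same directions as *Cdh11*. *Zeb2* fell in both (log2 fold change -1.31 and -1.83). *Snai3* had 0 to 22 reads, and its call against WT (log2 fold change 1.59, adjusted p = 0.0170 in the libraries labelled *Atm-/-*) was lost without the first WT library (adjusted p = 0.0842), without the second library labelled *Atm-/-* (adjusted p = 0.0586) and in 2 further alternatives.

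**Figure D4:**
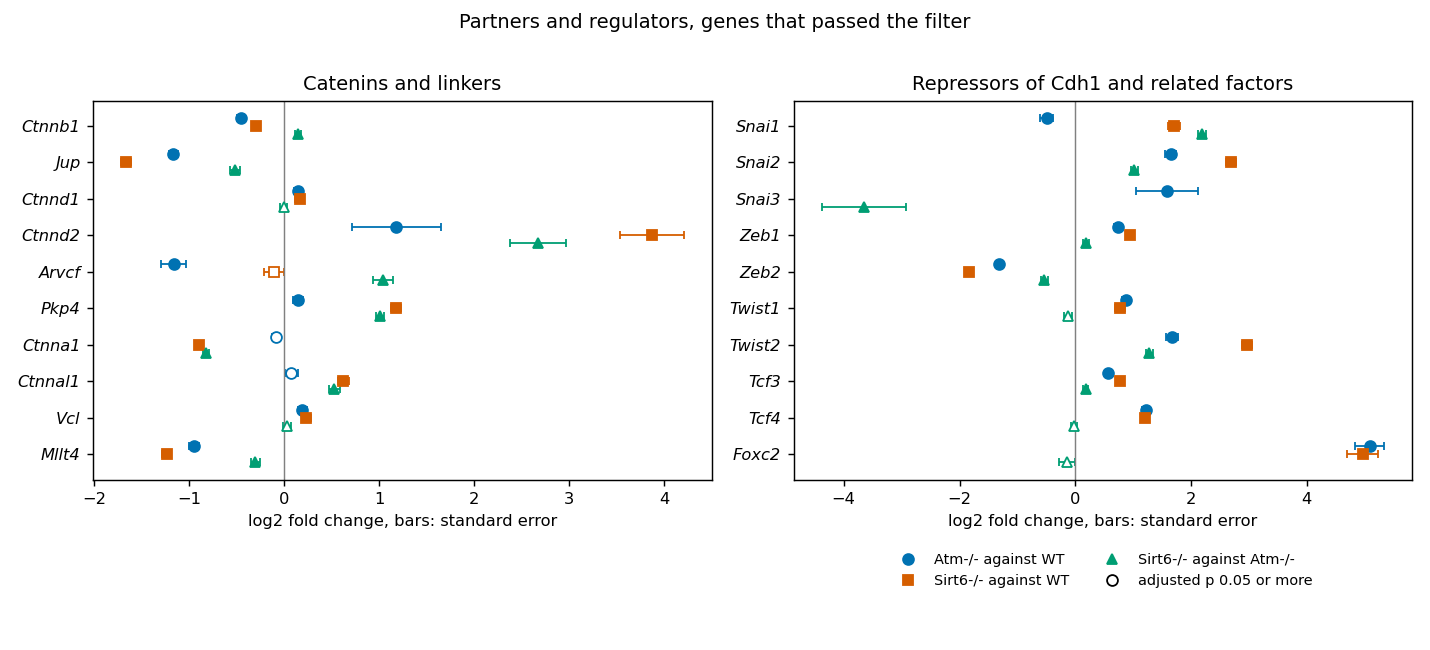
Log2 fold changes (horizontal axes, first group over second, bars are standard errors) of the catenins and linkers (left) and of the repressors of *Cdh1* and related factors (right) that had enough reads, in the 3 comparisons, with open symbols at an adjusted p of 0.05 or more. *Jup* and *Mllt4* lie below 0 in all 3 comparisons, *Foxc2* lies near 5 in both comparisons with WT, and *Snai1* lies at -0.49 for the libraries labelled *Atm-/-* and at 1.71 for *Sirt6-/-*.

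Of 11 factors that keep an epithelial programme, 6 were tested in each comparison with WT, with 1 higher and 1 lower in the libraries labelled *Atm-/-*, and 3 higher and 2 lower in *Sirt6-/-*, beside 68.4% and 76.6% of all genes called. *Foxa2*, a pioneer factor of endoderm, had 838 to 929 reads in the libraries labelled *Atm-/-* and 0 to 2 in every other library, and its relative *Foxa1* had 147 to 202 reads in *Sirt6-/-*, 4 to 15 in WT and 0 to 2 in the libraries labelled *Atm-/-*. The most reads of these pioneer factors were thus in different groups. *Esrp2*, a splicing factor of epithelia, had 20 to 33 reads in *Sirt6-/-* against 400 to 548 in WT (log2 fold change -4.19 ± 0.21 SE, adjusted p = 1.6e-10), and *Grhl1* 2 to 7 against 24 to 38 (log2 fold change -2.50). The call of *Esrp2* between the libraries labelled *Atm-/-* and WT (log2 fold change -0.41, adjusted p = 0.0110) was lost with library totals (-0.25) and without the third WT library (-0.25).

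Proteases that can cut cadherins from the cell surface were measured at the RNA level alone. Of 9 tested, 2 were higher and 6 lower in the libraries labelled *Atm-/-* than in WT, and 4 higher and 4 lower in *Sirt6-/-*, where 68.4% and 76.6% of all genes tested were called (34.7% higher and 33.6% lower, and 39.2% and 37.4%). *Mmp3*, the gene of stromelysin-1, had 26 to 77 reads in WT, 1863 to 2308 in the libraries labelled *Atm-/-* and 91 to 124 in *Sirt6-/-* (log2 fold change from WT 5.16 and 1.02, standard errors 0.19 and 0.32, adjusted p = 9.7e-12 and 0.0094). *Mmp9* was also highest in the libraries labelled *Atm-/-* (log2 fold change from WT 2.79 and 1.36). *Adam10*, the main sheddase of E-cadherin and N-cadherin, was lower in both groups (log2 fold change -0.96 and -0.69), as were *Mmp14* (-1.26 and -0.77) and *Psen2* (-0.76 and -1.19).

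Of the 10 members, 6 lie on chromosome 8, among them *Cdh3* and *Cdh1*, which are separated by 46.053 kb and lie on the same strand. *Cdh3* and *Cdh1* changed in different ways, with *Cdh3* 7.96-fold lower and *Cdh1* 1.78-fold higher in the libraries labelled *Atm-/-* than in WT. The 3 protein-coding genes on each side were examined after the values of *Cdh3* were known. *Smpd3*, the gene of neutral sphingomyelinase-2, which ends 172.902 kb before *Cdh3*, had 3099, 2436 and 3119 reads in WT, 1748, 1700 and 1757 in the libraries labelled *Atm-/-* and 382, 335 and 417 in *Sirt6-/-*. It thus had the order of *Cdh3* with smaller differences (log2 fold change from WT -0.87 and -2.98, standard errors 0.08 and 0.10, adjusted p = 2.3e-07 and 1.4e-12). *Zfp90*, between these genes, was higher in *Sirt6-/-* than in WT (log2 fold change 0.54, adjusted p = 1.9e-05). *Tango6*, beyond *Cdh1*, did not pass the threshold in *Sirt6-/-* against WT (log2 fold change -0.11, adjusted p = 0.283). The other neighbours, *Prmt7*, *Has3* and *Chtf8*, did not have the order of *Cdh3*. In WT they had 1438 to 1557, 36 to 65 and 5115 to 5291 reads. In the libraries labelled *Atm-/-* they had 1990 to 2020, 79 to 95 and 5844 to 6262, and in *Sirt6-/-* 2030 to 2152, 94 to 119 and 6546 to 6921.

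**Figure D5:**
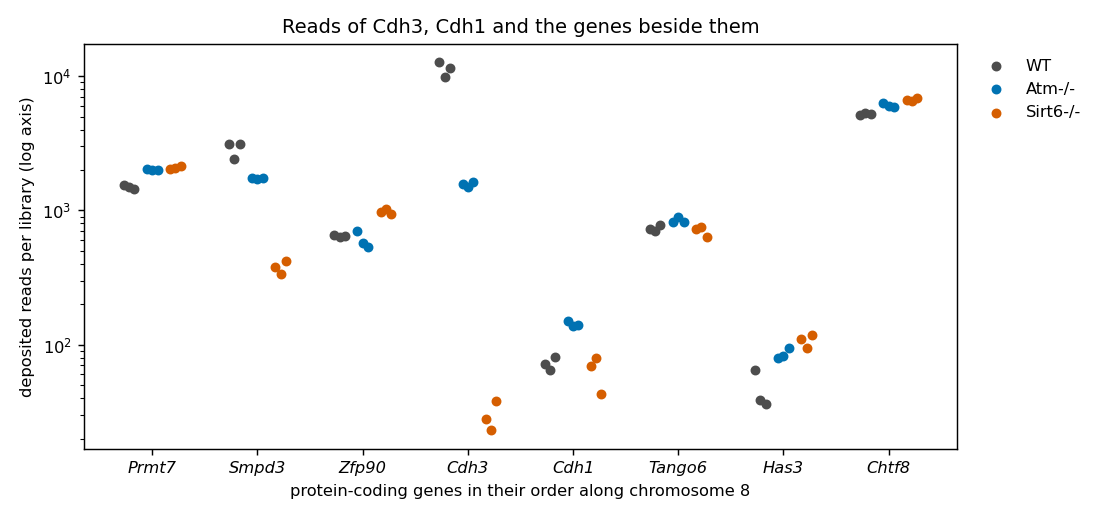
Deposited reads per library (vertical log axis) of *Cdh3*, *Cdh1* and the 3 protein-coding genes on each side, in their order along chromosome 8 (horizontal axis, not to scale), coloured by genotype label. *Cdh3* and *Smpd3* fall stepwise from WT over the libraries labelled *Atm-/-* to *Sirt6-/-*, while *Zfp90*, which lies between them, is highest in *Sirt6-/-*.

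For each member with enough reads, the genes whose log2 CPM profile over the 9 libraries was most like its own were found among 13757 genes, by the root mean square difference of profiles centred on their mean. This is a description, over libraries of 3 groups, and says nothing about shared function. The nearest to *Cdh3* were *Plxna4* (0.264), *Crb2* (0.289) and *Olr1* (0.330), and the nearest to *Cdh13* were *Alcam* (0.129), which encodes another adhesion protein, *Armcx4* (0.260) and *Zfhx4* (0.260). *Cdh2* had closer neighbours in *Cacnb3* (0.0590), *Slc6a8* (0.0629) and *Atp6v1h* (0.0646). Those of *Cdh11* were *Creb3l1* (0.124), *Sema3f* (0.146) and *Fam13c* (0.167), those of *Cdh1* were *Tmem68* (0.174), *Spata5l1* (0.180) and *Ercc2* (0.206), and those of *Cdh10*, which had few reads, were *Bex1* (0.467), *Tmc7* (0.541) and *Foxn1* (0.545). No member was among the nearest of another member.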

How the data were processed

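RNA-Seq data of 9 MEF libraries (3 WT, 3 *Atm-/-*, 3 *Sirt6-/-*, by the genotype label) were used. The authors deposited whole-number read counts per gene, without normalization, and RPKM, which divide the count by a listed transcript length and a read total of the library. The submitters' processing notes name mm10; the aligner, the counting tool, the annotation and the use of strand are not given in the sources used here.

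Each pair of groups was fitted on all genes in R 4.3.3 with the quasi-likelihood functions of edgeR 4.0.16, glmQLFit and glmQLFTest (prior count 0.125, TMM scaling, genes kept by filterByExpr), and genes with a Benjamini-Hochberg adjusted p under 0.05 were called. Standard errors were computed from the F statistic. RPKM were used for levels and shares. The procedure was tested on simulated counts, in which 200 genes were changed 2-fold at a dispersion of 0.01. In the 3 comparisons it recovered 198 or 199 of them, with 2 to 11 false calls. Far more genes were called in the data, so the simulation does not test the scaling or the rate of false calls in that setting. Gene positions came from GENCODE M21 on GRCm38, in which 95.2% of the listed symbols were found. Libraries of a group differed by more than counting noise (chi-square per gene 5.24 to 16.4), and 3 reads were taken as the floor, which covers counting error only.

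The members, the gene lists and the tests were chosen with earlier results of these data known. Named genes were all members, of each list up to 4 genes with the largest changes past the threshold, defining markers, *Atm*, *Sirt6* and *Trp53*, and the 3 genes most like each member. By this rule *Krt14* and *Des* were also due, but their values are not given. *Ctnnb1*, *Ctnna1*, *Pkp4*, *Arvcf*, *Snai1*, *Zeb1*, *Zeb2*, *Twist1*, *Adam10*, *Cdh16*, *Cdh23* and *Dsg2* were named after their values were seen. So were *Ncam1*, *Col1a1*, *Pdgfrb*, *Dcn*, *S100a4* and the neighbours of *Cdh3* and *Cdh1*.

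Replicate numbers paired the libraries at most weakly. Same-numbered libraries had correlations of their deviations from the group means between -0.0201 and 0.0307, and differently numbered libraries between -0.0330 and 0.0224. Between *Sirt6-/-* and the libraries labelled *Atm-/-*, the same-numbered pairs were higher (0.0179 to 0.0307) than the others (-0.0318 to 0.0003). Alternatives were DESeq2 size factors, library totals, no filter or a mean of at least 1 CPM, all 9 libraries in 1 fit, the replicate number as a block, the DESeq2 1.42.0 Wald test, the exact test of edgeR, a prior count of 2, a 2-fold threshold and each library left out.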

Additional observations from a re-analysis of the deposited data

How the results depend on the processing

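The 17 fold changes of cadherins kept their direction in all 270 alternative values, and 265 kept their side of the threshold. The other 5 were below 2-fold and were lost when 2-fold was required, which left 1 cadherin higher in *Sirt6-/-* than in WT and 1 higher than in the libraries labelled *Atm-/-*. All 17 stayed on their side of the threshold in the fit with a replicate block (*Cdh10* could not be kept at a mean of at least 1 CPM), and leaving out each library left the counts of called cadherins at 3 higher and 3 lower, 2 and 2, and 2 and 4 in the 3 comparisons, while the fitted *Cdh10* value in the libraries labelled *Atm-/-* against WT ranged from 3.0 to 7.72. Without division by length the share of *Cdh2* in the libraries labelled *Atm-/-* was 52.6% and that of *Cdh11* in *Sirt6-/-* 76.9%, and without *Cdh13* they were 54.8% and 83.6%. Values near 0 changed sign, none of them past the threshold. With library totals *Cdh24* in *Sirt6-/-* against WT was 0.036, *Cdh26* in *Sirt6-/-* against the libraries labelled *Atm-/-* -0.035 and *Ctnna1* in the libraries labelled *Atm-/-* against WT 0.078. With each library left out, *Cdh26* in *Sirt6-/-* against the libraries labelled *Atm-/-* ranged from -0.35 to 0.53, and *Grhl1* in the latter against WT from -0.023 to 0.31. Without the filter and with the DESeq2 Wald test *Cdh15* was also called, which gave 4 cadherins higher in the libraries labelled *Atm-/-* than in WT and 5 lower in *Sirt6-/-* than in the libraries labelled *Atm-/-*. Depth limits *Cdh4*, *Cdh5*, *Cdh6* and *Cdh15*, which did not pass the main filter. The causes of these changes were not tested beyond what each alternative alters.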
